A study of Mus musculus with 6 samples.

Results

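The CC chemokines described here are 10 secreted mouse chemokines, Ccl2, Ccl3, Ccl4, Ccl5, Ccl6, Ccl7, Ccl8, Ccl9, Ccl12 and Ccl24. They were taken by gene symbol, whatever their values, from the 21899 genes of a tumor expression table, and all 10 were found once. The tumors grew from luciferase-labelled Lewis lung carcinoma cells (LLC-luc, a mouse lung cancer line) implanted subcutaneously at the left axilla of male C57BL/6 mice. Every group used here was irradiated, at 620 nm for 10 min as the labels give it. The Laser group had irradiation without a photosensitizer, the methods giving it saline. The PC-La group had phycocyanin (PC), a light-absorbing Spirulina protein, injected at the tumor 4 h before irradiation, and the SePC-La group had selenium-enriched phycocyanin (SePC) in the same way, with an injection interval of 5 days in the labels. Each group had 2 samples. The methods describe tumor tissue taken from each group, and neither they nor the labels say whether the 2 samples came from separate mice, so p-values measure the spread between these samples, which may be technical. No unirradiated tumor was sequenced here, and all differences are between irradiated tumors.

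Expression was given as FPKM, fragments counted on a gene scaled by its exon length and by the sample's total. The lengths merge the annotated exons of a gene, from 511 bases for Ccl8 to 3045 for Ccl9 among the members. Levels of different genes can be set beside each other only as far as these lengths match the transcripts present. The totals recovered from the values ranged from 14447792 to 17649489 reads per sample. Across genes, the samples of a group correlated at 0.992 in PC-La, 0.972 in SePC-La and 0.946 in Laser. Laser replicate 1 correlated more closely with the PC-La samples (0.986 and 0.983) than with Laser replicate 2. Differences of the members from Laser are therefore also given without a Laser sample where that matters. For other genes no such values are given, so their differences from Laser rest on both of these unlike samples. Of 4 epithelial markers, the keratins were abundant, Krt8 from 78.1 to 114 FPKM and Krt18 from 110 to 166 FPKM, and Epcam (0.0304 to 0.129 FPKM) and Cdh1 (0.182 to 1.17 FPKM) were low. The summed level of 4 lung epithelial markers was between 0 and 0.526 FPKM and Scgb1a1 was listed at 0 in all samples.

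Chemokines are small secreted proteins that guide leukocytes along concentration gradients through G protein-coupled receptors, and the CC family is named for a pair of adjacent cysteines. In tumors, CC chemokines are known for the recruitment of monocytes, macrophages, granulocytes and lymphocytes, and tumor cells, myeloid cells and stromal cells can all make them. Several are induced by NF-kB downstream of cytokines such as interleukin-1 and tumor necrosis factor.

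In GENCODE M21, on genome build GRCm38, 9 of the 10 genes lay on chromosome 11 in a pair of clusters, and Ccl24 lay apart on chromosome 5 from 135569937 to 135573049 on the minus strand. The first cluster spanned 81.2 kb and held Ccl2 (82035571 to 82037453), Ccl7 (82045712 to 82047525), Ccl12 (82101845 to 82103400) and Ccl8 (82115185 to 82116799), all on the plus strand. The second cluster spanned 138.9 kb and held Ccl5 (83525778 to 83530518), Ccl9 (83572919 to 83578636), Ccl6 (83587882 to 83593087) and Ccl3 (83647844 to 83649355) on the minus strand and Ccl4 (83662584 to 83664683) on the plus strand. All are annotated as protein coding. The longest stretch that transcripts of 2 members had in common was 25 bases, between Ccl6 and Ccl9, followed by 23 bases between Ccl2 and Ccl7. Ccl2 overlapped Gm17268 on the opposite strand, which was listed at 0 in all samples, and Ccl6 overlapped E230016K23Rik on the opposite strand, which had no value in the table; whether the counting used strand is not given in the sources used here.

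Promoter sequences of 5 members (Ccl3, Ccl6, Ccl8, Ccl9 and Ccl12) were in RefSeq's promoter windows for GRCm38.p6. The 150 bases before the start of Ccl6 and Ccl9 are shown because these neighbours had the lowest levels of all samples in PC-La. Capitals mark runs of 10 or more bases that occur in both, on the minus strand of chr11:83593088-83593237 for Ccl6 and chr11:83578637-83578786 for Ccl9.
Ccl6: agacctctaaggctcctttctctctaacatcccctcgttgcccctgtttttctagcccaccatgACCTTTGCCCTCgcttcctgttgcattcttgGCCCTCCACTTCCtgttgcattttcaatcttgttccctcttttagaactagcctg
Ccl9: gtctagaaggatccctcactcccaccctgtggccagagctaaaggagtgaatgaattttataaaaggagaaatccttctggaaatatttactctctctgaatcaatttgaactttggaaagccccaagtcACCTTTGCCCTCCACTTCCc
The best local alignment of their 250-base windows covered 17 columns, of which 16 were identical. The shared letters lie in 2 separate runs in Ccl6 and in 1 joined run, just before the start, in Ccl9.

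Ccl12 and Ccl8 are adjacent genes whose SePC-La samples differed from each other by 2.51-fold and 4.16-fold, the widest gaps of any member in that group. Their windows aligned over 247 columns with 59.1% identity, the highest alignment score of the 10 pairs of available promoters. Capitals mark TATAAA, the TATA box core, on the plus strand of chr11:82101695-82101844 for Ccl12 and chr11:82115035-82115184 for Ccl8.
Ccl12: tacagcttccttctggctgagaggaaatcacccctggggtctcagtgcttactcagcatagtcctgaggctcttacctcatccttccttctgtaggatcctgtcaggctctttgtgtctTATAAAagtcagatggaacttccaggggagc
Ccl8: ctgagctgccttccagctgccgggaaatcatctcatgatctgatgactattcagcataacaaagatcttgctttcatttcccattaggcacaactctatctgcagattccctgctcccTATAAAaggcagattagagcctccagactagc
TATAAA began 31 bases before the start in Ccl12 and 32 bases before it in Ccl8. On either strand it was present in 12.4% of all 32851 windows of 250 bases, and also in Ccl9, at 92 bases before the start. The AP-1 letters TGANTCA, present in 6.75% of windows, occurred in Ccl9, and so did an NF-kB consensus match, present in 7.25% of windows, on the opposite strand. CCAAT, present in 33.8% of windows, occurred in none of these 5 members. These are matches of letters and not measured binding.

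The members differed widely in level. Averaged over the 6 samples, Ccl2 was highest at 284 FPKM, then Ccl7 at 129, Ccl6 at 116, Ccl8 at 60.0 and Ccl9 at 36.5 FPKM. Ccl12 (17.4 FPKM), Ccl3 (16.8), Ccl4 (12.1) and Ccl5 (9.16) formed a lower tier, and Ccl24 was lowest at 1.85 FPKM. All 10 passed the minimum mean of 1 FPKM and were tested. Differences below are limma estimates on the log2(FPKM + 1) scale with a standard error (SE), and the 1 that is added makes them understate the change of low genes such as Ccl24. A gene met the criterion of the study where its absolute log2 difference was over 1 and its unadjusted p under 0.05, and adjusted p-values are Benjamini-Hochberg values over all 10853 genes tested. In none of the 3 comparisons did an adjusted p fall under 0.05 for any gene in the fit to all 6 samples, so each difference that met the criterion is a nominal one of that fit. An exact permutation test of 2 samples against 2 cannot give a p below 0.333.

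**Figure D1:**
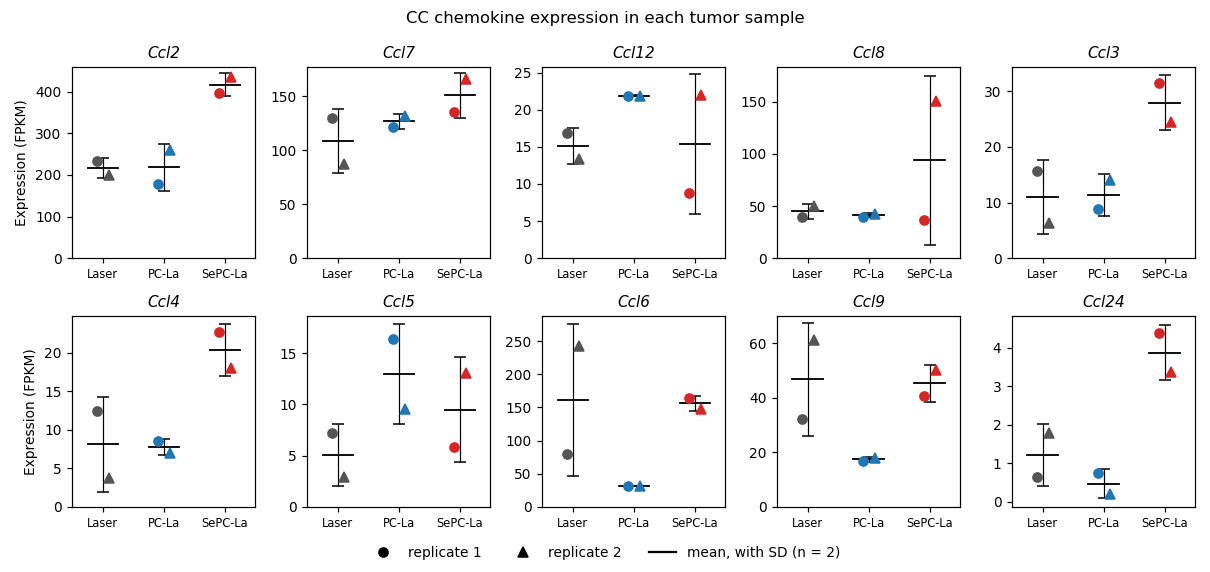
FPKM of each of the 10 CC chemokines in the 6 tumor samples (circle, replicate 1; triangle, replicate 2), with 1 panel per gene and its own vertical axis. The horizontal line is the group mean and the bars the SD (n = 2); Ccl2, Ccl3, Ccl4, Ccl7 and Ccl24 had both SePC-La samples above all other samples, and Ccl6 and Ccl9 had both PC-La samples below all other samples.

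Ccl2, also called MCP-1, is the main ligand of Ccr2 and draws monocytes out of blood and marrow. It was measured at 234 and 200 FPKM in the Laser samples, 179 and 259 FPKM in PC-La and 397 and 436 FPKM in SePC-La, from 3180 to 8656 reads. Laser and PC-La overlapped, and both SePC-La samples stood above the other 4. The SePC-La mean of 416 ± 27.4 FPKM was 1.92 times the Laser mean of 217 ± 23.6 and 1.90 times the PC-La mean of 219 ± 56.9 (SD, n = 2 each). The log2 difference was 0.94 (SE 0.20, adjusted p = 0.376) against Laser and 0.95 (SE 0.20, adjusted p = 0.126) against PC-La, just short of the fold limit of the criterion. PC-La and Laser differed by -0.01 (95% interval -0.49 to 0.48). Median-ratio scaling between samples moved both SePC-La differences past the limit, to 1.02 and 1.05, while quantile normalization lowered them to 0.69 and 0.76. Leaving out a sample gave 0.68 against PC-La without PC-La replicate 1. It also moved them past the limit, with 1.05 against Laser without Laser replicate 1, 1.21 against PC-La without PC-La replicate 2, and 1.01 in both without SePC-La replicate 1.

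Ccl7, or MCP-3, another Ccr2 ligand, varied least of the members, 1.9-fold from the lowest sample to the highest. Its levels were 130 and 87.6 FPKM in Laser, 122 and 132 FPKM in PC-La and 136 and 166 FPKM in SePC-La. The SePC-La samples were again the highest, but by a margin smaller than the gap between the Laser samples. None of its differences met the criterion: 0.24 for PC-La against Laser (95% interval -0.26 to 0.75), 0.49 for SePC-La against Laser (-0.02 to 1.00) and 0.25 for SePC-La against PC-La (-0.26 to 0.76).

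Ccl12, or MCP-5, a Ccr2 ligand as well, was measured at 16.8 and 13.4 FPKM in Laser, 21.8 and 21.9 FPKM in PC-La and 8.76 and 22.0 FPKM in SePC-La. The PC-La samples agreed closely and lay above both Laser samples, while the SePC-La samples held both the lowest and the highest value. Ccl8, or MCP-2, which in the mouse acts through Ccr8, had a like split. Its levels were 39.8 and 50.1 FPKM in Laser, 39.9 and 42.4 FPKM in PC-La and 36.4 and 151 FPKM in SePC-La, from 269 to 1351 reads, so that 5 samples lay within a narrow band and SePC-La replicate 2 far above it. The SePC-La means of 93.9 ± 81.3 FPKM for Ccl8 and 15.4 ± 9.34 FPKM for Ccl12 (SD, n = 2 each) therefore describe neither sample. The log2 differences of Ccl8 were -0.12 for PC-La against Laser, 0.73 for SePC-La against Laser and 0.84 for SePC-La against PC-La, each with an SE of 0.64. The latter values were -0.29 and -0.17 without SePC-La replicate 2, and 1.74 and 1.85, which met the criterion, without SePC-La replicate 1. The differences of Ccl12 were 0.51, -0.10 and -0.61 in the same order, each with an SE of 0.39, and none of these 6 met the criterion with all samples. Without SePC-La replicate 2, Ccl12 was at -1.23 against PC-La and met it.

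Ccl3 (MIP-1 alpha) and Ccl4 (MIP-1 beta) are inflammatory chemokines, Ccl3 a ligand of Ccr1, made by activated macrophages, neutrophils and lymphocytes. Ccl3 was measured at 15.7 and 6.36 FPKM in Laser, 8.77 and 14.1 FPKM in PC-La and 31.4 and 24.4 FPKM in SePC-La, from 86 to 348 reads. Both SePC-La samples lay above the other 4, among which the groups overlapped. The SePC-La mean of 27.9 ± 5.00 FPKM was 2.53 times the Laser mean of 11 ± 6.6 and 2.44 times the PC-La mean of 11.5 ± 3.79 (SD, n = 2 each). The log2 difference was 1.37 (SE 0.43, adjusted p = 0.382) against Laser and 1.24 (SE 0.43, adjusted p = 0.174) against PC-La, and both met the criterion. PC-La differed from Laser by 0.13 (95% interval -0.93 to 1.2).

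Ccl4 was alike in its highest and lowest samples, while its PC-La samples ran in the reverse order. Its levels were 12.5 and 3.78 FPKM in Laser, 8.53 and 6.99 FPKM in PC-La and 22.7 and 18.0 FPKM in SePC-La, from 44 to 216 reads. The SePC-La samples were the highest and Laser replicate 2 the lowest, as for Ccl3. The mean of 20.3 ± 3.31 FPKM in SePC-La (SD, n = 2) was 2.49 times that of Laser and 2.62 times that of PC-La, with log2 differences of 1.40 (SE 0.48, adjusted p = 0.385) and 1.28 (SE 0.48, adjusted p = 0.193). PC-La differed from Laser by 0.12 (95% interval -1.09 to 1.33). These calls depended on single samples and settings. With all samples of the comparison kept, Ccl4 missed the criterion against Laser in the fit to only the 4 samples compared and against PC-La with a pseudocount of 0.1, its unadjusted p then being above 0.05. Without Laser replicate 2 the SePC-La difference from Laser was 0.78 for Ccl3 and 0.65 for Ccl4, and neither met the criterion. Ccl3 also missed it against Laser without SePC-La replicate 1 (1.19), and against PC-La without PC-La replicate 1 (0.92) or without SePC-La replicate 1 (1.06) or 2 (1.42). Ccl4 missed it against PC-La when any PC-La or SePC-La sample was left out, at values from 1.12 to 1.44, and against Laser when any of these samples was, at values from 1.24 to 1.56.

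Ccl5 (RANTES), a ligand of Ccr1 and Ccr3 made by T cells, NK cells and macrophages, ran in another order. Its levels were 7.16 and 2.89 FPKM in Laser, 16.4 and 9.54 FPKM in PC-La and 5.84 and 13.1 FPKM in SePC-La, from 49 to 246 reads. Both PC-La samples lay above both Laser samples, and SePC-La overlapped both groups. The PC-La mean of 13.0 ± 4.85 FPKM was 2.58 times the Laser mean of 5.02 ± 3.02 (SD, n = 2 each), a log2 difference of 1.26 (SE 0.51, adjusted p = 0.753), which missed the criterion because its unadjusted p was just above 0.05. It met the criterion under median-ratio scaling (1.24), quantile normalization (1.25), moderation without robust estimation (1.26), a fit to the 4 samples compared (1.26) and voom on recovered reads (1.49). Leaving out Laser replicate 2 gave 0.73, and leaving out Laser replicate 1 gave 1.80, which met the criterion. SePC-La differed by 0.80 from Laser (95% interval -0.48 to 2.09; 1.34 without Laser replicate 1, which met the criterion) and by -0.46 from PC-La (-1.75 to 0.82).

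Ccl6 (C10) and Ccl9 (MIP-1 gamma) are mouse ligands of Ccr1 made mostly by myeloid cells. Ccl6 had the widest spread of the abundant members, 79.9 and 242 FPKM in Laser, 31.9 and 31.0 FPKM in PC-La and 164 and 148 FPKM in SePC-La, from 833 to 7668 reads. The PC-La samples were nearly equal and lowest, and the Laser samples lay on either side of SePC-La. The PC-La mean of 31.5 ± 0.632 FPKM was 0.195 times the Laser mean of 161 ± 115, and the SePC-La mean of 156 ± 11.1 was 4.95 times the PC-La mean (SD, n = 2 each). The log2 difference was -2.11 for PC-La against Laser (SE 0.49, adjusted p = 0.65) and 2.27 for SePC-La against PC-La (SE 0.49, adjusted p = 0.126). SePC-La and Laser differed by 0.16 (95% interval -1.07 to 1.39).

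Ccl9 was measured at 32.2 and 61.4 FPKM in Laser, 16.7 and 18.1 FPKM in PC-La and 40.5 and 50.2 FPKM in SePC-La. As with Ccl6, both PC-La samples were below the other 4 and Laser replicate 2 was highest. The PC-La mean of 17.4 ± 0.988 FPKM was 0.371 times the Laser mean of 46.8 ± 20.7, and the SePC-La mean of 45.3 ± 6.85 was 2.61 times the PC-La mean (SD, n = 2 each). The log2 difference was -1.31 for PC-La against Laser (SE 0.30, adjusted p = 0.61), 1.33 for SePC-La against PC-La (SE 0.30, adjusted p = 0.126) and 0.02 for SePC-La against Laser (95% interval -0.71 to 0.75). Without Laser replicate 2, PC-La against Laser was -1.32 for Ccl6, which still met the criterion, and -0.85 for Ccl9, which did not. The ratio of Ccl6 to Ccl9 came to 2.48 and 3.94 for the Laser samples, 1.91 and 1.71 for PC-La and 4.04 and 2.95 for SePC-La, so the ratio was lowest in both PC-La samples, as a description without a test.

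Ccl24 (eotaxin-2), a ligand of Ccr3 that attracts eosinophils and is made by alternatively activated macrophages, was rare in all samples. It was measured at 0.639 and 1.79 FPKM in Laser, 0.741 and 0.206 FPKM in PC-La and 4.38 and 3.36 FPKM in SePC-La. The reads behind these values numbered 13 and 41 for Laser, 15 and 4 for PC-La and 82 and 76 for SePC-La. The SePC-La samples had the highest values, and the other groups overlapped. The SePC-La mean of 3.87 ± 0.722 FPKM was 3.18 times the Laser mean of 1.22 ± 0.817 and 8.17 times the PC-La mean of 0.474 ± 0.378 (SD, n = 2 each). On the log2(FPKM + 1) scale it differed by 1.18 from Laser (SE 0.32, adjusted p = 0.376) and by 1.74 from PC-La (SE 0.32, adjusted p = 0.126), and PC-La differed from Laser by -0.56 (95% interval -1.33 to 0.21). With 0.1 added in place of 1 these differences were 1.74, 2.96 and -1.22. Without Laser replicate 1 the difference of SePC-La from Laser was 0.79, and without SePC-La replicate 1 it was 1.03 with an unadjusted p above 0.05, so it met the criterion in neither case.

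The comparison of PC-La with Laser asks what phycocyanin added to irradiation. In it, 2 of the 10 members met the criterion, Ccl6 and Ccl9, both lower in PC-La, against 0.424% of all genes tested in that direction. None was called higher, against 0.866% of all genes. The groups did not overlap with PC-La lower for Ccl6 and Ccl9 (21.6% of all genes), and with PC-La higher for Ccl5 and Ccl12 (20.4% of all genes). An unadjusted p under 0.05 was found for 2 members and for 5.78% of all genes, and an adjusted p under 0.05 for none and for 0.0%. The median difference was 0.06 over the members and -0.00 over all genes tested, with 5 members higher and 5 lower. Leaving out Laser replicate 2 gave a median of -0.15 and 1 member that met the criterion, Ccl6, and leaving out Laser replicate 1 gave a median of 0.32.

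The comparison of SePC-La with Laser asks the same of selenium-enriched phycocyanin, and uses the same Laser samples. Ccl3, Ccl4 and Ccl24 met the criterion, all higher in SePC-La, against 0.544% of all genes. None was lower by the criterion, against 0.138% of all genes. SePC-La lay above Laser with no overlap for 5 members, Ccl2, Ccl3, Ccl4, Ccl7 and Ccl24, against 15.0% of all genes, and below it for none, against 25.6% of all genes. An unadjusted p under 0.05 was found for 4 members and 12.1% of all genes, and an adjusted p under 0.05 for none and 0.0%. The median difference was 0.76 over the members and -0.06 over all genes, with 9 higher and 1 lower. Without Laser replicate 2 only Ccl24 met the criterion, and the median was 0.32 without SePC-La replicate 2.

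The comparison of SePC-La with PC-La sets selenium-enriched against plain phycocyanin, both given in the same way per the methods. The study also reports less chromium, manganese and zinc in the selenium-enriched preparation, and selenium cannot be told apart from these here. This comparison uses the same PC-La and SePC-La samples as the comparisons with Laser. Ccl3, Ccl4, Ccl6, Ccl9 and Ccl24 met the criterion, all higher in SePC-La, against 1.18% of all genes. None was lower by the criterion, against 1.8% of all genes. SePC-La lay above PC-La with no overlap for 7 members, the 5 just named with Ccl2 and Ccl7, against 26.0% of all genes, and below it for none, against 39.5% of all genes. An unadjusted p under 0.05 was found for 6 members and 24.3% of all genes, and an adjusted p under 0.05 for none and 0.0%. The smallest adjusted p was 0.126 among the members and 0.0649 among all genes. Where only these 4 samples were fitted, so that the spread between the Laser samples did not enter, the same 5 members (Ccl3, Ccl4, Ccl6, Ccl9 and Ccl24) had an adjusted p under 0.05, the smallest at 0.008, against 5.87% of all genes. The median difference was 1.09 over the members and -0.07 over all genes. Ccl6, Ccl9 and Ccl24 met the criterion with any 1 of the 6 samples left out, and the count was 3 without PC-La replicate 1. The interval of Ccl7, -0.26 to 0.76, did not reach 1, while that of Ccl8, -0.78 to 2.46, held both 0 and the difference found for Ccl9.

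**Figure D2:**
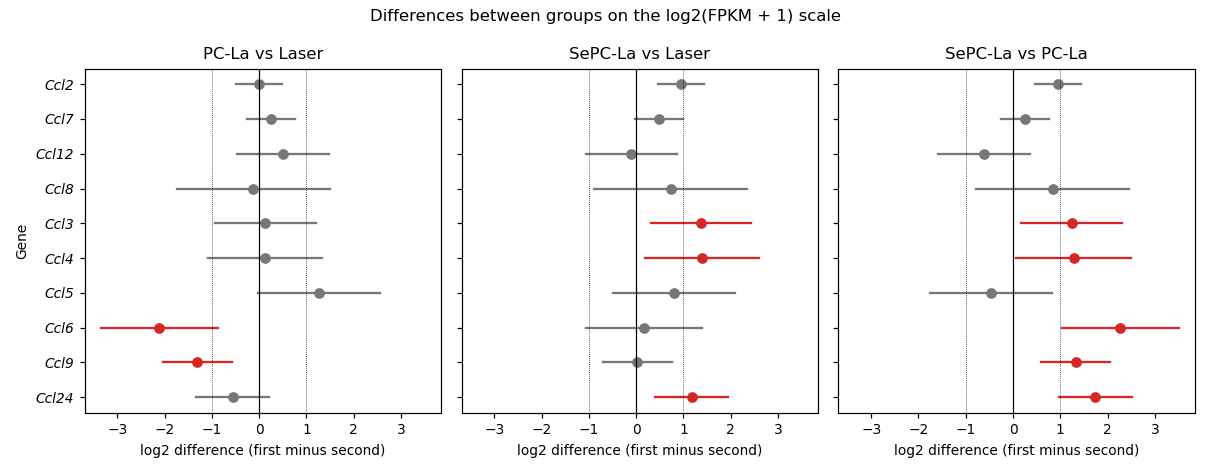
Log2 difference of each CC chemokine on the log2(FPKM + 1) scale in the 3 comparisons (first group minus second), with 95% confidence intervals from limma; red marks members that met the criterion and dotted lines mark a log2 difference of 1. PC-La against Laser had 2 red members, both below 0, SePC-La against Laser had 3 and SePC-La against PC-La had 5, all above 0.

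Set against each gene's own mean, the median deviation over the 10 members on the log2(FPKM + 1) scale was -0.08 and -0.36 for the Laser samples, -0.43 and -0.17 for those of PC-La and 0.43 and 0.69 for those of SePC-La. SePC-La replicate 2 was the highest sample for 4 members and SePC-La replicate 1 for 3. Laser replicate 2 was the highest for Ccl6 and Ccl9 and the lowest of all samples for 4 other members, so the Laser group held opposite extremes. The Euclidean distance from the median profile over the 6 samples was 0.268 for Ccl2, 0.658 for Ccl7 and 1.01 for Ccl3. It was larger for the other 7 members, from 1.21 for Ccl4 to 2.49 for Ccl6, than the median of 1.12 over all genes of at least 5 FPKM. The distance takes in the size of the deviations as well as their direction, so it does not rank genes by shape. In SePC-La, Ccl4 (1.05 and 0.73) and Ccl24 (1.13 and 0.82) deviated in the direction of the median, but further.

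**Figure D3:**
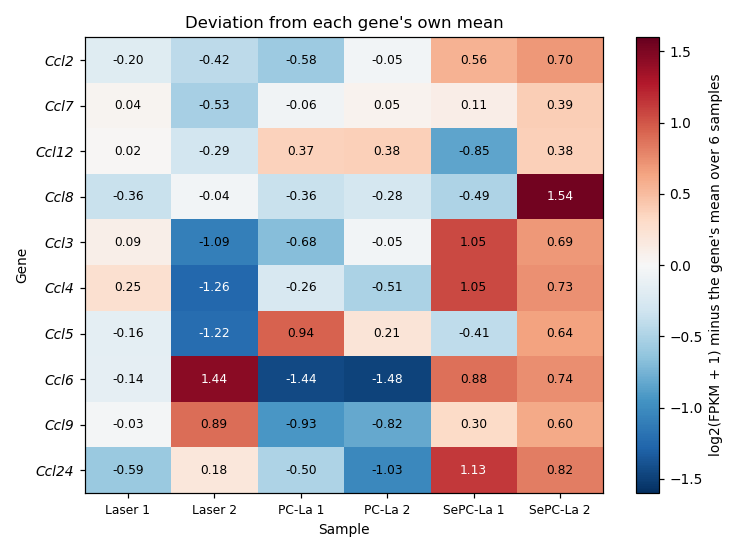
Deviation of each CC chemokine in each tumor sample from its own mean over the 6 samples, on the log2(FPKM + 1) scale, with red above and blue below the mean. Ccl6 runs from 1.44 in Laser replicate 2 to -1.48 in PC-La replicate 2, and Ccl9 from 0.89 in Laser replicate 2 to -0.93 in PC-La replicate 1. Ccl8 stands out at 1.54 in SePC-La replicate 2.

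The 5 genes outside the members with the profile nearest to the members' median were Pim1, Dusp5, Pfkfb3, Prelid2 and Odc1, at distances of 0.245 to 0.298 over 6 samples. Pim1, a cytokine-induced kinase, was at 13.3 and 10.9 FPKM in Laser, 10.4 and 13.7 FPKM in PC-La and 21.6 and 20.9 FPKM in SePC-La. Odc1, the rate-limiting enzyme of polyamine synthesis, was at 179 and 135, 150 and 180, and 252 and 260 FPKM in the same order. Both had their SePC-La samples above the other 4, as Dusp5, a phosphatase of the MAP kinase ERK, Pfkfb3, a kinase that promotes glycolysis, and Prelid2 did. They were chosen for this likeness, which is a description over 6 samples.

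Summed over the 10 members, the level was 568 and 670 FPKM in Laser, 445 and 535 FPKM in PC-La and 847 and 1030 FPKM in SePC-La. Both SePC-La samples had the highest sums. Without Ccl2 the sums were 335 and 469, 267 and 276, and 450 and 597 FPKM, so that Laser replicate 2 exceeded SePC-La replicate 1. Ccl2 made up 29.9% to 48.4% of the sum and was the leading member in 5 samples. In Laser replicate 2, Ccl6 led with 36.2% of the sum, against 5.79% to 19.3% in the other 5. Ccl3, Ccl4 and Ccl5 together came to 35.4 and 13.0 FPKM in Laser, 33.7 and 30.7 FPKM in PC-La and 59.9 and 55.5 FPKM in SePC-La.

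**Figure D4:**
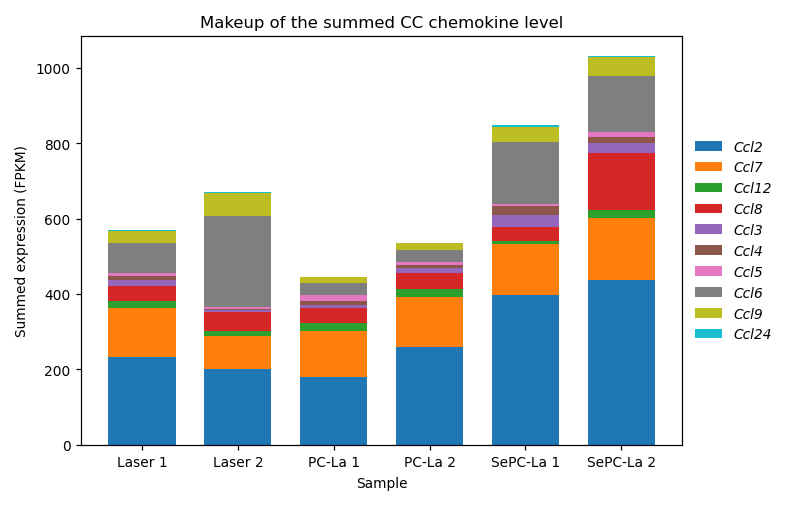
Summed FPKM of the 10 CC chemokines in each tumor sample, stacked by gene. The sums were 445 and 535 FPKM in PC-La, 568 and 670 FPKM in Laser and 847 and 1030 FPKM in SePC-La, and Ccl2 was the tallest block in every sample but Laser replicate 2, where Ccl6 was.

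Of 14 other CC ligands listed, 13 were in the table and 3 passed the minimum of 1 FPKM. Ccl26, Ccl21b and Ccl27b were listed at 0 in all samples, and Ccl1, Ccl17, Ccl19, Ccl20, Ccl21a, Ccl27a and Ccl28 stayed under 0.5 FPKM. Ccl11 (eotaxin), which shares Ccr3 with Ccl24, was the most abundant, at 14.1 and 2.72 FPKM in Laser, 21.5 and 16.4 FPKM in PC-La and 3.97 and 6.46 FPKM in SePC-La. Its PC-La samples were the highest. SePC-La against PC-La was -1.70 (SE 0.66, adjusted p = 0.204), lower by the criterion. Ccl11 is known as a product of fibroblasts, and the 5 fibroblast markers summed to 526 and 68.9 FPKM in Laser, 819 and 693 FPKM in PC-La and 44.5 and 235 FPKM in SePC-La. These sums were made up mostly of Dcn and Lum, which with Pdgfra were highest in PC-La replicate 1, as Ccl11 was. Col1a1 (23.2 FPKM) and Col1a2 (10.1 FPKM) were instead highest in SePC-La replicate 2. The part of fibroblasts in the Ccl11 values was not tested. Ccl22 and Ccl25 met the criterion in no comparison.

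Of the 10 CC receptors listed, 4 passed the filter, with a median difference of 0.46 for PC-La against Laser, 0.08 for SePC-La against Laser and -0.28 for SePC-La against PC-La. Ccr1, the receptor of Ccl3, Ccl5, Ccl6 and Ccl9, was the most abundant, at 26.3 and 27.8 FPKM in Laser, 20.4 and 28.8 FPKM in PC-La and 28.6 and 31.3 FPKM in SePC-La. PC-La overlapped both other groups, and SePC-La against Laser was 0.14 (95% interval -0.28 to 0.57). Ccr2, the receptor of Ccl2, Ccl7 and Ccl12, was at 14.7 and 7.5 FPKM in Laser, 18.6 and 25.4 FPKM in PC-La and 8.01 and 12.5 FPKM in SePC-La. Both PC-La samples were the highest, and SePC-La against PC-La was -1.05 (SE 0.35, adjusted p = 0.164), lower by the criterion. Ccr7 met the criterion in no comparison. Ccr3, the receptor of Ccl24, lay between 0 and 0.233 FPKM.

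Of 4 atypical receptors, which bind chemokines without the usual G protein signal, only Ccrl2 passed the filter. It was at 2.77 and 1.03 FPKM in Laser, 2.71 and 3.14 FPKM in PC-La and 3.78 and 6.17 FPKM in SePC-La. Its SePC-La samples were the highest, and SePC-La against Laser was 1.08 (SE 0.34, adjusted p = 0.376), which met the criterion.

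**Figure D5:**
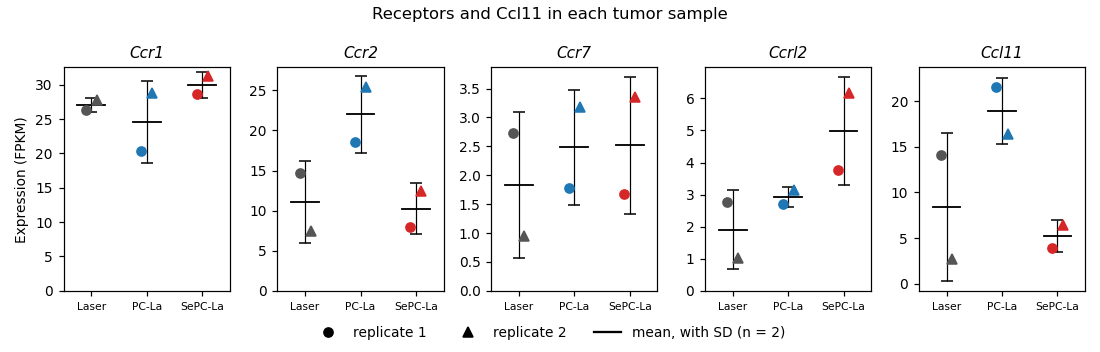
FPKM of the CC chemokine receptors Ccr1, Ccr2 and Ccr7, of the atypical receptor Ccrl2 and of the ligand Ccl11 in the 6 tumor samples (circle, replicate 1; triangle, replicate 2), with group mean and SD (n = 2). Ccr2 and Ccl11 were highest in both PC-La samples and Ccrl2 in both SePC-La samples, while Ccr1 varied from 20.4 to 31.3 FPKM.

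Of 11 cytokines listed as possible regulators of CC chemokines, 5 passed the filter and none met the criterion in any comparison. In SePC-La, 4 of these 5 were higher and 1 lower than in Laser, and the counts against PC-La were the same. In PC-La, 2 were higher and 3 lower than in Laser. Their median difference was -0.05 for PC-La against Laser, 0.59 for SePC-La against Laser and 0.60 for SePC-La against PC-La. Il1b (interleukin-1 beta) was the most abundant, at 68.2 and 6.36 FPKM in Laser, 51.5 and 69.6 FPKM in PC-La and 107 and 102 FPKM in SePC-La. Its SePC-La samples were the highest and Laser replicate 2 by far the lowest, and Ccl3 and Ccl4 were also highest and lowest in these samples. The difference of Il1b between SePC-La and Laser, 2.22, had an SE of 1.06. Of 9 NF-kB subunits and inhibitors, all tested, 8 had a higher mean log2 level in SePC-La than in Laser and 8 than in PC-La, with medians of 0.27 and 0.33. Nfkbia, the inhibitor that NF-kB induces in feedback, was at 102 and 57.5 FPKM in Laser, 58.4 and 62.5 FPKM in PC-La and 134 and 174 FPKM in SePC-La. It was the only 1 of the 9 to meet the criterion, for SePC-La against PC-La (1.32, SE 0.28, adjusted p = 0.126).

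Markers of cells that can make CC chemokines also differed between the samples, and in whole tumors fewer cells of a type and less RNA per cell cannot be told apart. The 7 neutrophil markers summed to 152 and 39.7 FPKM in Laser, 146 and 78.7 FPKM in PC-La and 338 and 441 FPKM in SePC-La, highest in the samples in which Ccl2, Ccl3, Ccl4 and Ccl24 were highest. Of the 6 tested, 3 met the criterion as higher in SePC-La than in Laser (S100a8 by 2.21, S100a9 by 2.71 and Retnlg by 2.20) and 3 as higher than in PC-La (S100a8 by 1.90, Retnlg by 2.02 and Mmp8 by 1.58). Mmp8, a neutrophil collagenase, was also lower in PC-La than in Laser by the criterion (-1.36, SE 0.30), at 3.57 and 7.85, 1.5 and 1.46, and 6.96 and 5.90 FPKM, lowest in PC-La and highest in Laser replicate 2, as Ccl9 was. In contrast to Mmp8, the summed markers were lowest in Laser replicate 2, where S100a8 (9.39 FPKM) and S100a9 (14.1 FPKM) were also lowest. Retnlg was lowest in PC-La replicate 2, at 2.03 FPKM. The defining marker Ly6g was low, from 0 in Laser replicate 2 to 0.912 FPKM in SePC-La replicate 2. Their part in the chemokine differences was not tested.

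The 9 macrophage markers summed to 667 and 711 FPKM in Laser, 910 and 967 FPKM in PC-La and 392 and 735 FPKM in SePC-La, sums made up mostly of C1qa, C1qb and C1qc. Against Laser, 6 of the 9 were higher and 3 lower in PC-La, Mrc1 among the lower with 26.7 and 29.7 FPKM in Laser and 14.5 and 14.3 FPKM in PC-La. The most abundant, the complement component C1qa, was at 230 and 216, 342 and 348, and 118 and 246 FPKM. C1qa and C1qc met the criterion as lower in SePC-La than in PC-La, both by -1.01. The SePC-La sample with more macrophage marker RNA, replicate 2, also held more Ccl8, Ccl12 and Ccl5 than replicate 1. It held more Ccl2, Ccl7 and Ccl9 as well. The other members went the other way, with less in replicate 2 than in replicate 1. These were Ccl3 (24.4 against 31.4 FPKM), Ccl4 (18.0 against 22.7), Ccl6 (148 against 164) and Ccl24 (3.36 against 4.38). The fibroblast markers (235 against 44.5 FPKM) and mast cell markers (88.8 against 1.57 FPKM) of replicate 2 also summed higher than those of replicate 1. In PC-La, with the highest macrophage sums, Ccl5 and Ccl12 lay above both Laser samples. Ccl8 did not, at 39.9 and 42.4 FPKM against 39.8 and 50.1 FPKM in Laser. None of the 9 macrophage markers was at 0, and their part in these values was not tested. The 5 monocyte markers summed to 49.4 and 270, 45.5 and 64.8, and 67.4 and 86.6 FPKM, and the high value in Laser replicate 2 was mostly Chil3, at 242 FPKM there and 7.72 to 36.3 FPKM elsewhere. That is the sample with the highest Ccl6 and Ccl9. Of the 5, Plac8 met the criterion as higher in SePC-La than in Laser (1.19, SE 0.22, adjusted p = 0.376), and Ccr2, which is also in this list, as lower in SePC-La than in PC-La.

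Markers of other cells were low or uneven between replicates. The 5 eosinophil markers, of the cells Ccl24 attracts, summed to at most 0.57 FPKM, none passed the filter and Epx was listed at 0 in all samples. The 7 T cell markers summed to 11.4 and 4.03 FPKM in Laser, 13.7 and 12.3 FPKM in PC-La and 3.97 and 12.4 FPKM in SePC-La, and the 6 NK cell markers to 10.3 and 16.0, 25.2 and 15.4, and 6.15 and 14.5 FPKM. Ccl5, made by both, was likewise lower in SePC-La replicate 1 than in replicate 2, and like both sums it was higher in PC-La replicate 1. In Laser, Ccl5 (7.16 and 2.89 FPKM) fell from replicate 1 to replicate 2 as the T cell sum did, while the NK cell sum rose. That rise came from Gzma (6.26 and 11.7 FPKM) and Prf1 (2.24 and 3.22 FPKM). The other NK cell markers fell as Ccl5 did: Klrk1 (0.868 and 0.592 FPKM), Ncr1, Klrb1c and Eomes. The 4 mast cell markers summed to 113 and 1.98, 21.2 and 11.9, and 1.57 and 88.8 FPKM, and the 4 skeletal muscle markers to 11.1 and 68.4, 0.644 and 0.525, and 0.0464 and 2.33 FPKM. Acta1, Ckm and Myh4 of muscle met the criterion as lower in both photosensitizer groups than in Laser. Sums stayed under 1.5 FPKM for 4 B cell markers, none of which passed the filter, and lay between 5.93 and 11.6 FPKM for 5 dendritic cell markers and between 15.6 and 28.0 FPKM for 5 endothelial markers. No marker of mast cells, endothelium, T cells, NK cells, fibroblasts or dendritic cells met the criterion, and the part of any of these cells in the chemokine values was not tested.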

How the data were processed

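RNA of 6 tumor samples was sequenced on an Illumina instrument. The authors deposited 1 table of FPKM values, made from gene counts scaled by exon length and sample total; the unit is not named in the sources used here and was settled from the values. Multiplied by merged exon lengths of GENCODE M21 (GRCm38), they gave whole reads, within 0.02 of a read, in all 6 samples for 97.8% of expressed genes. The submitters' processing notes name HISAT2 2.0.5, HTSeq 0.9.1, DESeq 1.30.0 and the build mm9; the coordinates printed are those of GRCm38. The labels and the methods differ in wavelength and injection interval, and the study's text also speaks of triplicates; the samples of the labels were used.

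Of 21899 genes, 5091 were at 0 throughout. The 10853 with a mean of at least 1 FPKM were fitted as log2(FPKM + 1) with limma 3.58.1 in R 4.3.3, over all 6 samples. The fit had a mean per group and trended and robust moderation (6.4 degrees of freedom, 3.4 from the prior). On data simulated with the same spread for every gene, the median estimate for SePC-La against Laser was checked against a known difference. Error rates under the spread of these samples were not checked. The criterion, absolute log2 difference over 1 with p under 0.05, is the study's. Recovered reads were used to give depth and for voom.

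The members and lists were chosen with earlier results of these data known. Named were all members and, of each list, the genes that met the criterion (at most 4) and the most abundant gene, and the 5 genes of nearest profile. Other genes named, such as Ccr3, Ccr7 and Ly6g, are list members chosen after their values were seen. Results of a single gene of the lists are not reported here; it still enters the fits and list totals. Alternatives were a pseudocount of 0.1, other filters, scalings, moderation and thresholds, only the 4 samples compared, voom on recovered reads, the replicate number as a block, and each sample left out. Sequences are RefSeq's. Python 3.11.15, pandas 2.3.3, Biopython 1.88 and matplotlib 3.10.9 made tables and figures.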

Additional observations from a re-analysis of the deposited data

How the results depend on the processing

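Of 477 recomputed differences of single members, 422 kept their direction and side of the criterion, 19 fell short of it, 18 came to meet it and 18 changed sign; the causes were not tested. With an adjusted p under 0.05 no member was called in any comparison (0) in the limma fit to all 6 samples. With only the 4 samples compared, 5 members and 637 genes had such a p for SePC-La against PC-La, and without Laser replicate 1, 2 members (Ccl6 and Ccl9) and 312 genes had it for PC-La against Laser and 1 (Ccl4) and 97 genes for SePC-La against Laser; voom gave 0 in all 3. Leaving out 1 sample, which leaves a lone sample assumed to vary like the other groups, gave 1 to 3 members that met the criterion for PC-La against Laser, 1 to 4 for SePC-La against Laser and 3 to 5 for SePC-La against PC-La. The members' median then ran from -0.17 to 0.32, from 0.32 to 1.02 and from 0.86 to 1.18. It was 0.84 and 1.2 for the SePC-La comparisons with median-ratio scaling, 0.65 and 1.01 with quantile normalization, 0.86 against Laser with voom, and 0.95 against PC-La at a minimum of 5 FPKM, which leaves out Ccl24.

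Changes of sign with all samples kept were confined to Ccl9 under quantile normalization (-0.07 for SePC-La against Laser). With a sample left out, PC-La against Laser ran from -0.27 to 0.26 for Ccl2, -0.46 to 0.72 for Ccl3, -0.63 to 0.87 for Ccl4, -0.04 to 0.53 for Ccl7 and -0.28 to 0.05 for Ccl8. SePC-La against Laser ran from -0.63 to 0.95 for Ccl6, -0.29 to 1.74 for Ccl8, -0.44 to 0.47 for Ccl9 and -0.71 to 0.52 for Ccl12, and SePC-La against PC-La from -0.98 to 0.06 for Ccl5, -0.17 to 1.85 for Ccl8 and -1.23 to 0.01 for Ccl12.

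Same-numbered samples share only a number: their deviations correlated at 0.086, -0.428 and -0.177. A fit with the replicate block gave 2, 3 and 5 members that met the criterion, as without it, and 133, 81 and 285 of all genes against 140, 74 and 323. Among all genes, the split of higher to lower calls for SePC-La against PC-La was 128 to 195, 166 to 149 with median-ratio scaling and 169 to 149 with quantile normalization; a pseudocount of 0.1 gave 129 calls against 74 for SePC-La against Laser and 488 against 323 for SePC-La against PC-La. A minimum of 5 FPKM gave 68, 46 and 186 calls among all genes in the 3 comparisons, and voom gave 220 and 133 in those with Laser. The few reads of Ccl24 and the 2 samples per group limit the precision.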
